A study of Mus musculus with 6 samples.

Results

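Integrin and laminin subunit genes were taken from the array as the non-control probes whose printed gene name starts with Itga or Itgb, without Itgbl1 and the integrin-binding proteins, or names a laminin alpha, beta or gamma chain. This gave 81 of the 41174 probes, for 26 integrin genes (60 probes) and 11 laminin genes (21 probes). They were measured in tumors of Hepa1-6, a mouse hepatoma line, grown under the skin of female C57Bl/6 mice and removed at day 10 (tumors 302, 307 and 312) or day 15 (tumors 303, 313 and 318) after inoculation. The labels name no genetic change or drug for either day. They tie no tumor to a mouse, so the spread behind every p-value is that of these samples. Each tumor RNA was labelled with Cy5 and hybridised on 1 two-colour Agilent array against a Cy3 reference, described as total RNA of the blood of an untreated female mouse of the same strain. A value is the log2 ratio of tumor over reference unless said otherwise, and values per tumor stand in the order 302, 307 and 312, then 303, 313 and 318.

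Integrins are receptors made of an alpha and a beta subunit that tie cells to the extracellular matrix or to other cells and signal through adaptors at their cytoplasmic tails. The partner of a subunit sets what is bound. Beta 2 and beta 7 integrins belong to leukocytes, alpha IIb beta 3 to platelets, alpha 1, alpha 2 and alpha 11 bind collagens, and alpha 6 beta 4 anchors epithelia to laminin. Laminins are trimers of an alpha, a beta and a gamma chain that form the sheet of the basement membrane, with the alpha 4 chain typical of vessels and the alpha 3 and beta 3 chains typical of epithelia.

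The share of spots well above background per array ran from 52.4% to 58.5% in Cy5 and from 47.5% to 52.8% in Cy3. On the array of tumor 312 an area of lost signal covered 13.6% of the spots, and 10 member probes had spots in it, among them the probes standing for Itgal, Itga5 and Itgav. Tumor 313 stood apart from the other 5 in 5 of the 6 hepatocyte and hepatoma markers (Alb, Afp, Ambp, F2 and Ttr), with a list median of -0.59 against 3.85 to 4.68. Gpc3, the remaining marker of that list, was 5.13 in tumor 313 and 4.73 to 5.48 in the others. The reference went against its label in some markers. The medians of 4 pan-leukocyte and 4 erythroid markers were 3.69 and 3.29 higher in the tumors than in the reference. The brightest probes of Ptprc (CD45) and the erythroid Slc4a1 were not well above background in Cy3 on any array. The other markers of these lists (Coro1a, Cd53, Laptm5, Hbb-bt, Hba-a1 and Alas2) passed that mark on each array. Of the platelet markers, Ppbp was higher in the reference (-2.62) and Pf4 higher in the tumors (5.22). Because markers went both ways, the Cy3 sample is called the reference labelled as blood. In these bulk samples, fewer cells of a type and less RNA per cell cannot be told apart.

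Of the 37 genes, 31 were bright enough to be tested against the reference. The leukocyte integrins Itgb7, Itgb2, Itgax, Itgam and Itgal, the collagen receptor Itga11 and the laminin chains Lama4 and Lama2 stood highest. Itgb6 and the laminin chain Lamb3 stood lowest. In limma, 17 of the 31 were called higher in the tumors and 5 lower, at an adjusted p under 0.05 and an absolute log2 ratio of at least 1. That is 54.8% higher, where 25.5% of the 16286 genes tested were, and 16.1% lower, where 9.77% were. The median log2 ratio of the members was 1.27, beside 0.22 over all genes. Of the 22 called genes, 21 had the same sign in all 6 tumors, and the exception was Itgal. The reference enters as 1 sample without a spread of its own, and no dye swap was made that could cancel a probe's preference for a dye. Without tumor 313 the counts were 17 higher and 4 lower, and without tumor 312 they were 18 and 5.

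**Figure D1:**
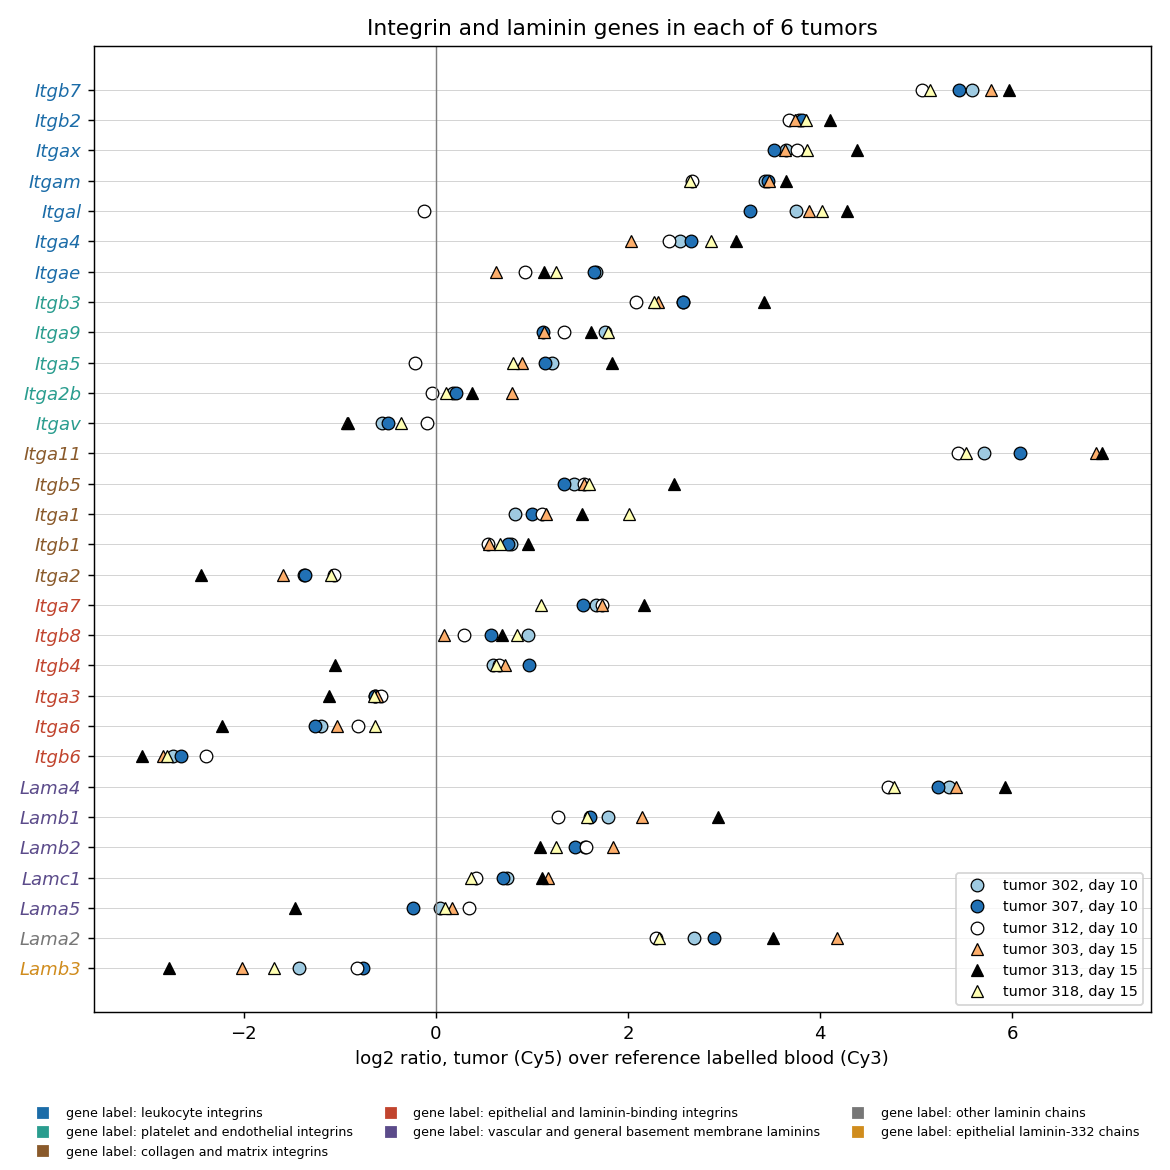
Log2 ratio of tumor (Cy5) over the reference labelled as blood (Cy3), x axis, for 30 of the 31 tested genes, with 1 point per tumor (circles day 10, triangles day 15) and gene labels coloured by role. Itga11, Itgb7 and Lama4 lie to the right of 4 in every tumor, Itgb6 lies to the left of -2 in every tumor, and the black triangle of tumor 313 is apart for Itgb4, Lama5, Itga3, Itgb5 and Itgb3.

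All 7 leukocyte integrins that were tested were higher in the tumors than in the reference. The highest was Itgb7, the beta chain of the gut-homing integrin and of the alpha E integrin of intraepithelial T cells. Its log2 ratio was 5.58, 5.45 and 5.06, then 5.78, 5.97 and 5.14. The tumors lay close together and the days overlapped, with a mean of 5.50 ± 0.36 (SD, n = 6) and an adjusted p of 3.5e-07 against the reference. Itgb2, the beta chain shared by the leukocyte integrins LFA-1, Mac-1 and CD11c/CD18, had ratios of 3.78, 3.81 and 3.68, then 3.74, 4.10 and 3.85. Its SD of 0.15 around a mean of 3.83 was the narrowest of the 7 (adjusted p = 1.9e-07).

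The alpha chains that pair with Itgb2 were higher too. Itgax (CD11c, of dendritic cells and macrophages) averaged 3.80 ± 0.31 and Itgam (CD11b, of myeloid cells) 3.22 ± 0.44 (SD, n = 6 each), with adjusted p of 6.8e-07 and 9.3e-06. The second Itgax probe gave 1.04, so its probes disagree on the size. For Itgal (CD11a, the alpha chain of LFA-1), the ratios were 3.75, 3.27 and -0.12, then 3.88, 4.28 and 4.02. The value of tumor 312 is far below the rest, and the spot of this probe lies in the area of lost signal on that array. The other Itgal probe, outside the area, gave 3.49, 3.44 and 3.50, then 2.95, 3.98 and 3.95. With the area left out the mean of the first probe was 3.78 rather than 3.18, called higher both ways (adjusted p = 2.5e-06 and 8.9e-04).

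Itga4, the alpha chain of VLA-4 and of the gut-homing integrin, averaged 2.61 ± 0.37 (SD, n = 6, adjusted p = 1.2e-05). Its 3 probes above background ran from 1.28 to 2.61 and so disagree on the size. The lowest of the group was Itgae (CD103), with 1.67, 1.65 and 0.93 at day 10 and 0.63, 1.13 and 1.25 at day 15. Tumor 303 was lowest, the days overlapped, and the mean was 1.21 ± 0.41 (adjusted p = 2.2e-04), with Cy3 well above background on only 3 of 6 arrays. Itgb2l, a beta 2-like gene, was not well above background in either dye on any array. The 4 pan-leukocyte and 5 macrophage markers were all called higher as well, with medians of 3.69 and 4.48. So were 4 of 4 tested NK cell markers, 3 of 4 for T cells, 3 of 4 for neutrophils and 1 of 3 for dendritic cells. The medians of these 4 lists were 2.50, 3.76, 2.10 and 0.95.

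Promoter sequences are shown for the leukocyte integrins because every tested gene of this group was higher. RefSeq (GRCm38.p6) promoters matched 24 of the 37 genes and 4 of the 7 tested leukocyte integrins, not Itgal, Itgb2 and Itgae. The 150 bases before the transcription start are given 5′ to 3′ on the gene's strand, with capitals marking AGGAAG or its reverse complement CTTCCT, letters that hold the GGAA core read by ETS-family factors such as PU.1, a regulator of myeloid genes. Itgam lies at chr7:128062490-128062639 (plus strand), Itgax at chr7:128129400-128129549 (plus), Itgb7 at chr15:102231936-102232085 (minus) and Itga4 at chr2:79255276-79255425 (plus).
Itgam: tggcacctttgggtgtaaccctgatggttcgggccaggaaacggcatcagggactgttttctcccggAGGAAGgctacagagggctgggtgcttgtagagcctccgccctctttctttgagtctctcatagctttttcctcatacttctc
Itgb7: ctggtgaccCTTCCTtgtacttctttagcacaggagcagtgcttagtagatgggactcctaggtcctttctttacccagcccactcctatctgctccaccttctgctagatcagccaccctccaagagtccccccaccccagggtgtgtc
Itgax: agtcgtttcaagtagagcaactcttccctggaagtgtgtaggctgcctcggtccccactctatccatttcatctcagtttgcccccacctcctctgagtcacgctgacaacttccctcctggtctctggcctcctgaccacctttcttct
Itga4: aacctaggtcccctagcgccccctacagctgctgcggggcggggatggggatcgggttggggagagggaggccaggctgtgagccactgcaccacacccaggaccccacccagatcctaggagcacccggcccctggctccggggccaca

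The 6 letters were found in 2 of these 4 windows, in Itgam with the first base at -83 from the start and in Itgb7 at -141, and not in Itgax or Itga4. Over all 32851 promoters of the table, 19.7% held them in the same 150 bases. The shorter GGAA core was not counted, and it also occurs outside the marked letters, as in the Itgam and Itgax windows. A match describes letters only.

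Among platelet and endothelial integrins, 2 of 5 were called higher and none lower. Itgb3, the beta chain of the platelet fibrinogen receptor and of the vitronectin receptor of endothelium, macrophages and osteoclasts, had ratios of 2.57, 2.57 and 2.08, then 2.31, 3.42 and 2.27. Tumor 313 was highest, and the mean of all 6 was 2.54 ± 0.48 (SD, n = 6, adjusted p = 2.8e-05). Its partner in platelets, Itga2b, averaged 0.27 ± 0.29 and was not called, with Cy3 not well above background on any array. Platelet markers were called higher in 1 and lower in 1 of 4.

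Itga9, a receptor of tenascin and of lymphatic valves, averaged 1.46 ± 0.31 and was called higher (adjusted p = 6.8e-05). Cy3 of this probe was not well above background on any array, while a further probe that the array prints under an older clone name, and that is not counted here, gave 3.22. Itga5, the fibronectin receptor chain, was 1.21, 1.14 and -0.22, then 0.90, 1.83 and 0.80. The low value of tumor 312 again comes from a spot in the area of lost signal. Its mean of 0.94 missed the fold threshold and was 1.18 and called without the area (adjusted p = 0.00112). It was called without tumor 312 (1.18), 303 (1.01) or 318 (1.04) as well. For Itgav, the alpha chain of the vitronectin receptor, ratios were -0.56, -0.50 and -0.09, then -0.92, -0.91 and -0.36, with the spot of tumor 312 in the area. Its probes above background ran from -1.83 to 1.14, so they disagree in direction and no direction is given.

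Collagen and matrix integrins were led by Itga11, a collagen receptor of fibroblasts and the member with the highest mean ratio. It was 5.71, 6.08 and 5.44 at day 10 and 6.87, 6.94 and 5.52 at day 15. Tumors 303 and 313 were the highest, tumor 318 fell among the day 10 values, and the mean was 6.09 ± 0.67 (SD, n = 6, adjusted p = 1.3e-06). All 6 fibroblast and pericyte markers were called higher as well, with a median of 6.65.

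Itgb5, a vitronectin receptor chain, was 1.44, 1.33 and 1.54, then 1.54, 2.48 and 1.59. Tumor 313 lay above the other 5, which spanned 1.33 to 1.59, and the mean of 1.65 ± 0.42 was called higher (adjusted p = 6.2e-05). It was 0.68 and not called when the arrays were centred on their medians without loess. Itga1, a collagen receptor of smooth muscle, fibroblasts and activated T cells, was called higher at 1.27 ± 0.43 (adjusted p = 1.0e-04), although Cy3 was well above background on only 1 array. Itgb1, the partner of most alpha chains, averaged 0.71 ± 0.16 and was not called.

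Itga2, the platelet and epithelial collagen receptor, was the lowest of the group, with -1.37, -1.36 and -1.06, then -1.59, -2.45 and -1.09. All 6 tumors lay below the reference, at a mean of -1.49 ± 0.51 (SD, n = 6, adjusted p = 2.6e-04). Its Cy5 signal was well above background on the 3 day 10 arrays and on none at day 15, where the reference was at least 2.70-fold higher. Itga10, a chondrocyte collagen receptor, was not well above background in either dye on any array. Itga8, of mesenchymal cells, was not tested through its brightest probe, which was above background on 1 array per dye. Another Itga8 probe was above background in Cy5 on the 3 day 15 arrays alone, with ratios of 0.64, 0.72 and 0.83, then 1.87, 1.23 and 1.29. That probe passed the filters through day 15 alone and is not in the counts. Its mean ratio of 1.10 was past the threshold in limma (adjusted p = 1.0e-04), with Cy3 above background on no array. Its day difference of 0.73 (unadjusted p = 0.0104 in limma) is limited by the background at day 10.

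Epithelial and laminin-binding integrins went both ways, with 1 of 6 called higher and 2 lower. Itgb6, the epithelial activator of latent TGF-beta, was lowest of all members at -2.74, -2.65 and -2.39, then -2.84, -3.06 and -2.80. The spread between tumors was small, with a mean of -2.75 ± 0.22 (SD, n = 6, adjusted p = 7.4e-07). Its Cy5 signal was not well above background on any day 15 array, and the reference was at least 7.38-fold higher there. Itga6, the alpha chain of the hemidesmosome integrin and of a laminin receptor of many cell types, averaged -1.19 ± 0.56 and was called lower (adjusted p = 0.00159). Without tumor 313 its mean was -0.96, and the mean of all 3 probes, the others at -0.85 and -0.40, was -0.82, both under the fold threshold.

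Itgb4, the partner of Itga6 in hemidesmosomes, was 0.59, 0.97 and 0.66, then 0.72, -1.05 and 0.63. Through the probe that stands for Itgb4, tumor 313 alone lay below the reference, and the mean of 0.42 ± 0.73 was not called. Without tumor 313 the mean was 0.71, again under the fold threshold. Another Itgb4 probe gave a mean of 0.44. The last one, read in 5 tumors, lay below the reference in each of them, with a mean of -0.41. Itga3, an epithelial laminin receptor, was -0.63, -0.63 and -0.57, then -0.61, -1.11 and -0.64. The other 5 tumors lay within a span of -0.64 to -0.57, tumor 313 lay below it, and the mean of -0.70 ± 0.20 was not called. That rests on the probe, since the other 2 Itga3 probes gave -1.04 and -1.30 (adjusted p = 9.5e-05 and 2.5e-04), past the threshold, and the mean of all 3 was -1.01. Itga7, a laminin receptor of muscle, was 1.67, 1.53 and 1.73, then 1.73, 2.17 and 1.09, a mean of 1.65 ± 0.35 that was called higher (adjusted p = 6.7e-05). Its second probe gave 0.52, and Cy3 of the first was well above background on only 2 arrays. Itgb8, another activator of TGF-beta, averaged 0.58 ± 0.33 and was not called, with Cy3 above background on no array. It was 1.44 and called in the alternative fits on processed signals and on the deposited value table.

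Laminin chains of vessels and of general basement membranes were higher or near the reference. Lama4, the alpha chain of endothelial laminins, was 5.34, 5.23 and 4.71, then 5.41, 5.93 and 4.77. Every tumor was far above the reference and the days overlapped, with a mean of 5.23 ± 0.45 (SD, n = 6, adjusted p = 9.7e-07). The 3 Lama4 probes above background gave 3.39 to 5.23, so they share the direction and disagree on the size. All 6 endothelial markers were called higher too, with a median of 3.79.

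Lamb1, a beta chain of vascular and embryonic laminins, was 1.79, 1.61 and 1.27, then 2.15, 2.94 and 1.57, with tumor 313 the highest and overlapping days. Its mean of 1.89 ± 0.59 was called higher (adjusted p = 1.0e-04). Lamb2, the beta chain of synapse, muscle and vessel laminins, averaged 1.45 ± 0.27 and was called higher (adjusted p = 4.3e-05), but not after median centring, where it was 0.58. Lamc1, the gamma chain of most laminins, averaged 0.75 ± 0.34 and was not called. Lama5, the alpha chain of epithelial and mature vascular basement membranes, was 0.04, -0.24 and 0.35, then 0.17, -1.47 and 0.10. Tumor 313 stood 1.56 below the mean of the others, and the mean of all 6 of -0.18 ± 0.66 was not called.

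Lama2, the alpha chain of muscle and nerve laminins, was 2.69, 2.90 and 2.29 at day 10 and 4.18, 3.51 and 2.32 at day 15. Tumor 303 was highest and the days overlapped. The mean ratio of 2.98 ± 0.74 (SD, n = 6) was called higher (adjusted p = 4.8e-05). No Lama2 probe was well above background in Cy3 on any array, so the ratios are limited by the background. The tumors were at least 6.99-fold higher. A second Lama2 probe gave a mean ratio of 1.85. Lama1, of early embryonic basement membranes, and Lamc3, a gamma chain of brain and other tissues, were above background on too few arrays to be tested.

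Lamb3, the beta chain of an epithelial laminin that anchors the skin, lay below the reference. It was -1.42, -0.76 and -0.82 at day 10 and -2.02, -2.78 and -1.68 at day 15. All tumors were below the reference, and the day 15 values were all below those of day 10. The mean was -1.58 ± 0.76 (SD, n = 6, adjusted p = 1.6e-04). Lama3, the alpha chain of the same trimer, was well above background in Cy5 on 1 array and in Cy3 on none.

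Detection was read in both dyes. In Cy3, 19 of the 37 genes were well above background on all 6 arrays and 7 on none, through the probe that stands for the gene, where 43.4% of all genes were on all 6 through their brightest probe. Among the 19 were 4 of the 8 leukocyte integrins (Itga4, Itgax, Itgb2 and Itgb7). Also among them were Itga3, Itga6, Itgb4 and Itgb6, 4 of the 6 epithelial and laminin-binding integrins, with Lama5 and Lamb3, in a reference labelled as blood. The epithelial markers Krt5, Krt8, Krt14, Krt18 and Epcam were well above background there on all 6 arrays too, but Cdh1, the remaining marker, on none. The part of these markers in the ratios of the epithelial members was not tested. In Cy5, 24 genes were above background on all 6 arrays, where 46.3% of all genes were, and Itga10 and Itgb2l on none.

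**Figure D2:**
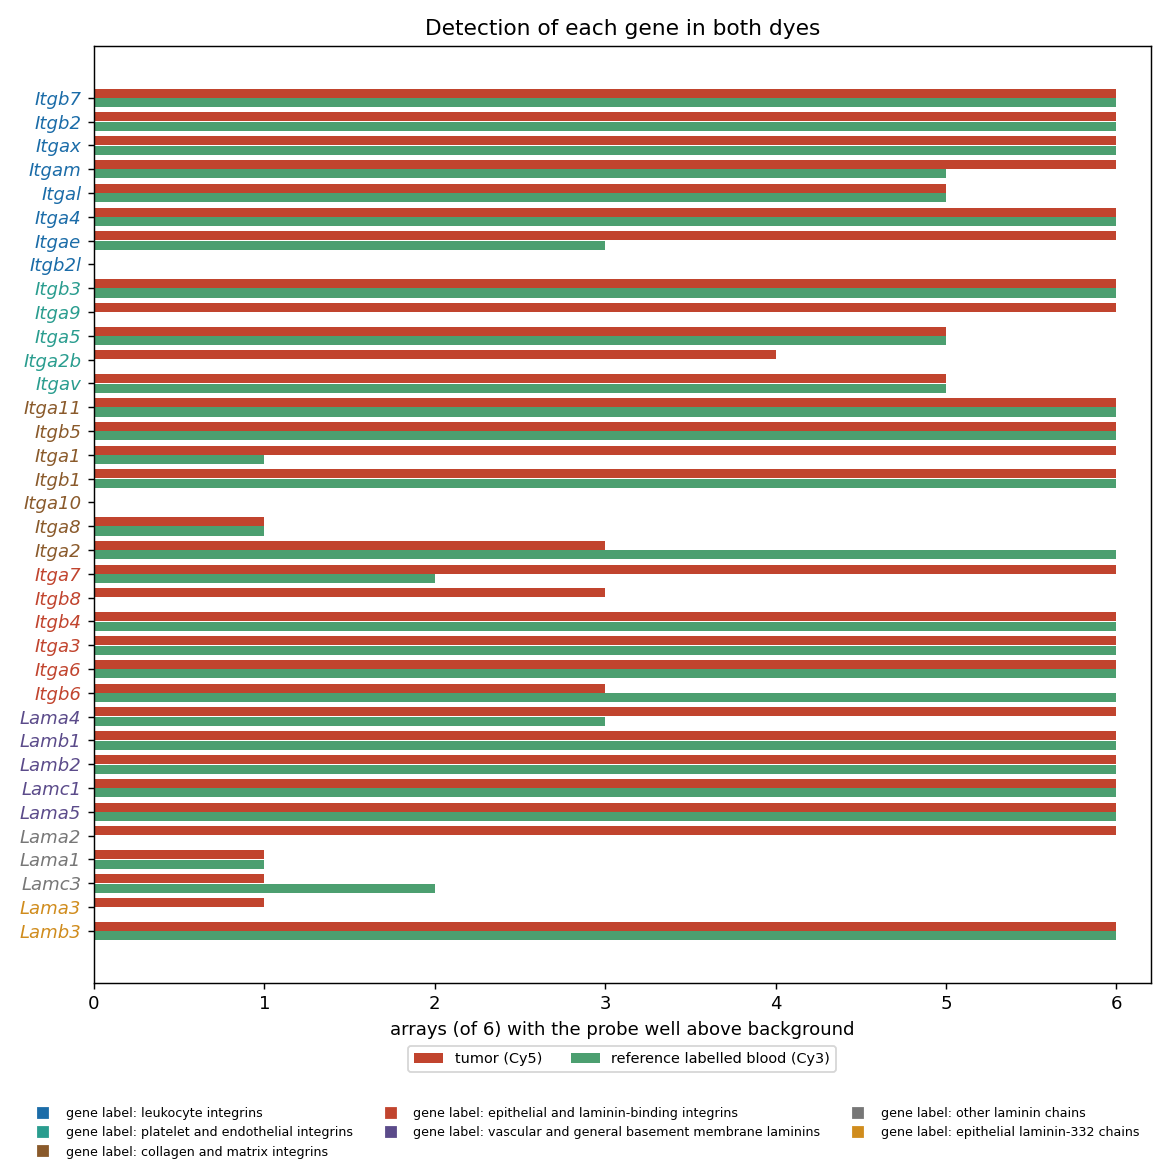
Number of arrays, x axis from 0 to 6, on which the probe standing for each of 36 of the 37 genes was well above background, in the tumor channel (Cy5, red) and in the reference channel (Cy3, green), with gene labels coloured by role. Epithelial genes such as Itgb6, Itga6 and Lamb3 reach 6 in green, whereas Lama2, Itga9, Itga2b and Itgb8 have a red bar and no green one.

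The day comparison asked which genes differed between the tumors removed at day 15 and those removed at day 10. No member was called, 0 of 31 in limma with Benjamini-Hochberg adjustment, and every member's adjusted p was 1.0. Of all 15779 genes tested, 0.0127% were called higher and 0.0444% lower at day 15. All day 10 arrays lay on 1 slide and all day 15 arrays on another, so slide and day cannot be told apart. At an unadjusted p under 0.05 there was 1 member higher and 1 lower, where 2.43% and 1.57% of all genes were. The count of 2 was 1 without tumor 307 or 313 and 9 without tumor 318.

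Among the members tested through the probe that stands for the gene, Lamb3 had the smallest unadjusted p. Its mean ratios were -1.0 at day 10 and -2.16 at day 15, a difference of -1.16 (SE 0.33, unadjusted p = 0.0107 in limma). In the tumor channel alone the difference was -1.34 (unadjusted p = 0.0205), and without tumor 313 it was -0.85 (0.0175). Itga1 was 0.82, 1.0 and 1.10, then 1.15, 1.52 and 2.01. The days did not overlap through this probe, with a difference of 0.59 (SE 0.24, unadjusted p = 0.0458). In the tumor channel alone the difference was 0.17 (0.578). Through the other Itga1 probes the days overlapped, with differences of 0.11 (SE 0.30) and 0.20 (SE 0.21).

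Values of the days, through the probe that stands for the gene, did not overlap for 2 tested members that were higher at day 15. These were Itga1 and Itgal, where 5.06% of all genes were. They also did not overlap for 2 that were lower, Itgb6 and Lamb3, where 3.79% were. Itgb6 passed the filter through day 10 alone, and its day 15 values are at background, so its difference of -0.31 is limited by the background. The Itgal difference of 1.76 (SE 0.97) was 0.55 (SE 0.22) with the area of tumor 312 left out. Through the other Itgal probe, outside the area, the days overlapped, with a difference of 0.15 (SE 0.29). For Itgae the ratio differed by -0.41 (SE 0.27) and the tumor channel alone by -0.64 (unadjusted p = 0.0269). In that channel alone, 2 members (Lamb3 and Itgae) had an unadjusted p under 0.05, where 2.96% of all genes did, and 0 were called. The median difference over the 31 members was 0.11, beside 0.02 over all genes.

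Skeletal muscle markers moved with the day. Their list median was 3.63 to 4.19 in the day 10 tumors and -0.03 to 0.06 at day 15, and 3 of 5 were called lower at day 15. The muscle laminin receptor Itga7 differed by 0.02 (SE 0.28) and the muscle laminin chain Lama2 by 0.71 (SE 0.47).

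**Figure D3:**
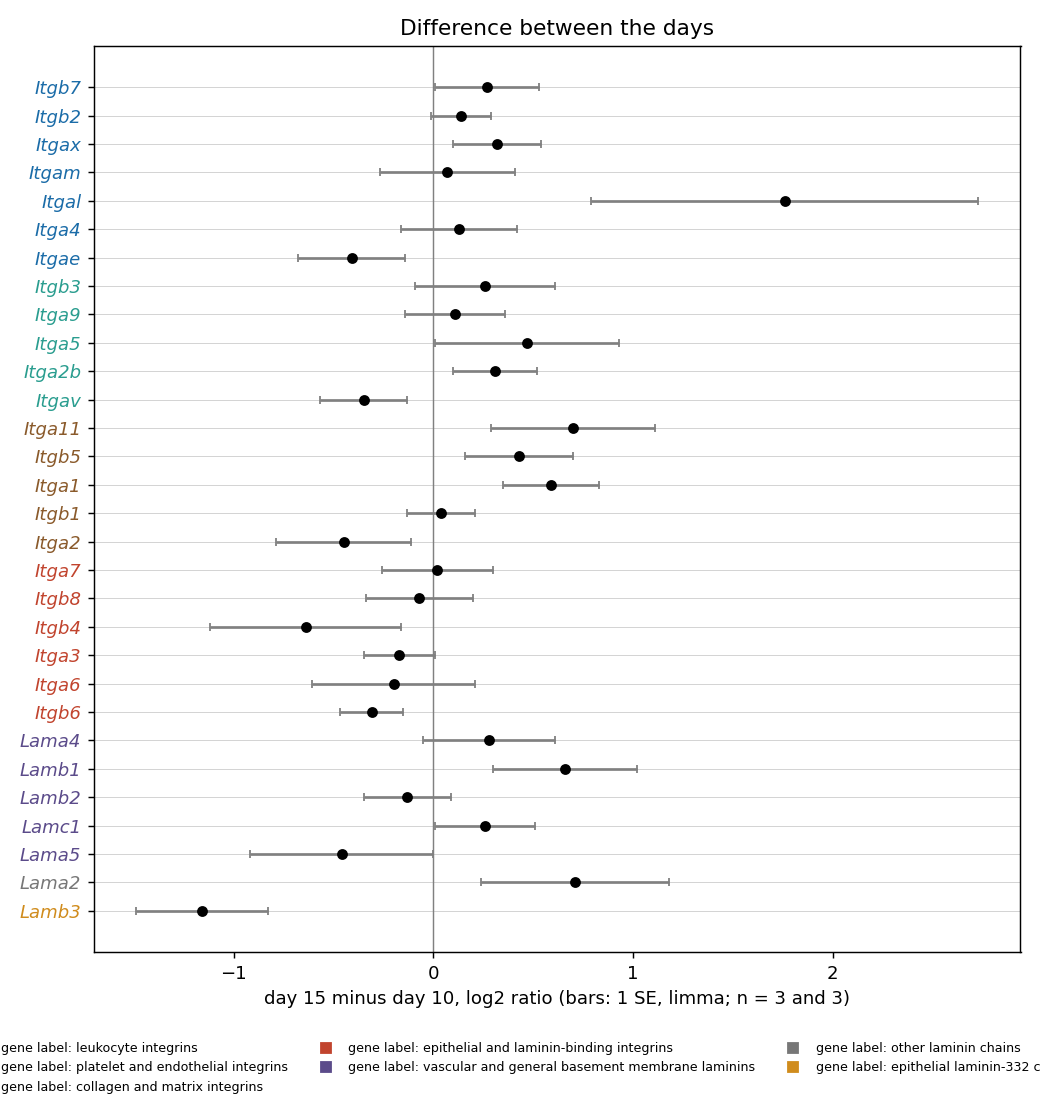
Difference of the mean log2 ratio, day 15 minus day 10, on the x axis, for 30 of the 31 tested genes, with bars of 1 SE from limma and 3 tumors per day. Lamb3 lies farthest to the left at -1.16, and Itgal farthest to the right at 1.76 with the widest bar.

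Tumor 313 was at an end of the range in many members. Among the 31 tested members it was the highest of the 6 tumors in 14 (45.2%) and the lowest in 8 (25.8%), where it was highest in 33.7% and lowest in 30.4% of all genes. It was highest in 6 and lowest in 0 of the 7 leukocyte integrins, and highest in 1 and lowest in 4 of the 6 epithelial and laminin-binding ones. Collagen and matrix integrins had 3 highest and 1 lowest of 5, platelet and endothelial ones 2 and 0 of 5, and vascular and general laminins 2 and 2 of 5. A difference between roles was not tested. By Dixon's test for 6 samples, 1 tumor lay apart in 6 of the 31 members, where that was so in 13.7% of all genes. With 1 such tumor there is no test of it as a group.

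The ratios that lay farthest below the mean of the other tumors were those of Itgb4 (-1.76), Lama5 (-1.56), Lamb3 (-1.44), Itga6 (-1.24) and Itga2 (-1.16). These 5 members were at least 1 log2 unit lower, where 6.10% of all genes were. The tumor channel carried the difference. In Cy5 alone, Itgb4 was -1.89 and Lama5 -1.72, while their Cy3 signals differed by -0.13 and -0.16. A second Itgb4 probe gave -1.14 in tumor 313 and 0.62 to 1.02 in the others, and the last probe had its spot in tumor 313 left out as an outlier and lay at -0.62 to -0.25 in the other 5. Of the other 2 Itga3 probes, 1 was lowest in tumor 313 at -2.16 and the other was not, at -1.04.

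On the other side, Lamb1 was 1.26, Itgb3 1.07, Itga11 1.02, Itgb5 1.0 and Lama4 0.84 higher in tumor 313 than the mean of the others. Itgal (1.32) and Itga5 (1.06) were also higher, but there the mean of the others holds the lost spot of tumor 312. The second Itgb3 probe was 3.21 in tumor 313 and 3.13 in tumor 303, so tumor 313 was not apart through it.

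Beside these values, tumor 313 had the highest list median of the pan-leukocyte (3.97, others 3.38 to 3.83) and endothelial markers (4.65, others 2.87 to 4.44). The same held for fibroblast and pericyte markers (7.27, others 6.08 to 6.87) and for macrophage, T cell and dendritic cell markers. Single leukocyte markers differed, with Cd53 and the macrophage marker Adgre1 highest in tumor 303 (3.51 and 8.83). The neutrophil median was lowest in tumor 313 (1.59, others 1.88 to 3.25). Its NK cell median (2.84) was below that of tumor 302 (2.94). Tumor 313 also had the lowest median of the epithelial markers (-0.90, others -0.29 to 0.21), but the genes of that list were split. Krt8 (-2.98), Krt18 (-2.14) and Epcam (-0.46) were lowest there, while Cdh1 (3.42), Krt5 (-1.34) and Krt14 (0.25) were highest. Their part in the member values was not tested.

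**Figure D4:**
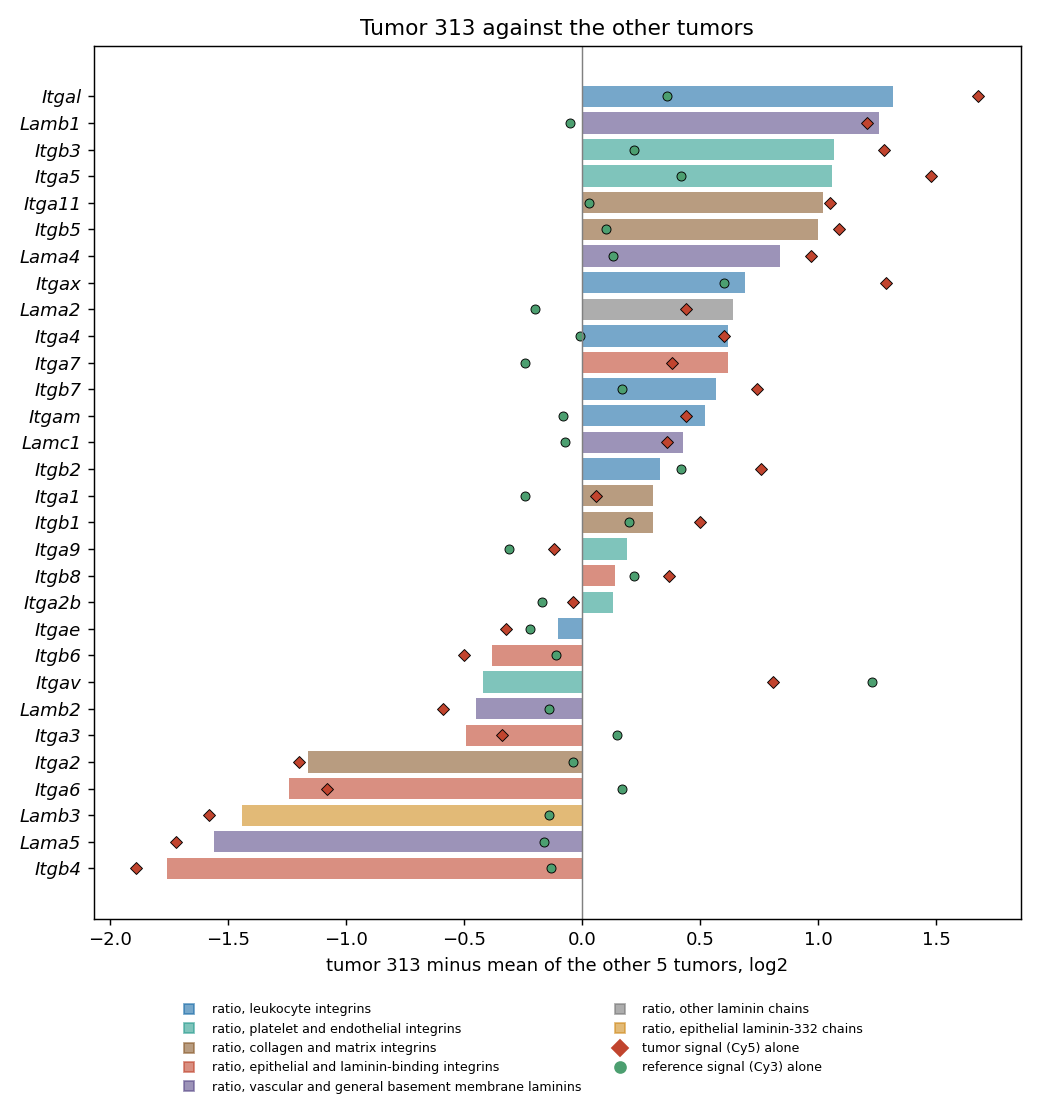
Tumor 313 minus the mean of the other 5 tumors, x axis in log2 units, for 30 of the 31 tested genes, as ratio (bars coloured by role), Cy5 signal alone (diamonds) and Cy3 signal alone (circles). Itgb4, Lama5, Lamb3, Itga6 and Itga2 have bars and diamonds below -1 with circles near 0, and Lamb1, Itgb3, Itga11 and Itgb5 reach about 1 or more on the right.

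Other genes of integrin adhesion were read from 4 lists. Of 26 adaptor and kinase genes at integrin tails, 11 were called higher and 1 lower than the reference, beside 25.5% and 9.77% of all genes, which also stand beside the counts of the other lists. Apbb1ip (RIAM, which brings talin to the membrane) was at least 32.2-fold higher, with Cy3 not above background, and Tns1 (tensin 1) had a mean ratio of 4.49 ± 0.43. The 1 lower gene was Bcar1 (p130Cas) at -1.20. The talin genes Tln1 (1.0) and Tln2 (2.58) and the leukocyte parvin Parvg (1.96) were among the higher ones.

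Ligands and partners were called in 1 direction only. Of the 7 tested ligands of leukocyte integrins, 5 were called higher, led by Jam3 (4.18) and Jam2 (2.86), junction proteins of endothelium whose brightest probes were well above background in Cy3 on 2 arrays and on none, with Vcam1, the ligand of VLA-4, at 1.90. Of 11 tested partners of laminin in the basement membrane, 5 were called higher, led by Nid2 (nidogen 2, at least 15.3-fold higher) and Col4a1 (2.48). Of 10 tested matrix ligands, 7 were called higher, led by Col1a1 (7.65) and Col3a1 (7.05), fibrillar collagens. In each of the 4 lists, 0 genes were called between the days.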

How the data were processed

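RNA of 6 tumors was measured against a common reference on 6 two-colour arrays. Per the file headers, the deposited scanner files were made with Agilent Feature Extraction 9.1.3.1 and hold mean and background intensity per spot and dye, not normalized, as the authors left them. The deposited value table holds log10 ratios of dye-normalized processed signals. Fits on it and on the processed signals of the scanner files gave close but not always identical ratios, such as -0.84 and -0.86 for Itgav. Each column of the value table has a median of 0.

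In limma 3.58.1 (R 4.3.3), intensities were background-corrected (normexp, offset 50) and loess-normalized within arrays, with control and outlier spots at weight 0 and then left out, and the spots of a probe were averaged. A gene was represented by its probe of highest mean log intensity. lmFit and eBayes tested the days (Cy5 well above background on at least 3 of 6 arrays) and the average of both days against 0 (either dye), 2-sided, with Benjamini-Hochberg adjustment over all probes tested at 0.05. "At least" folds use signals after Aquantile scaling, against the lowest signal well above background, and are open to dye bias. The day comparison in Cy5 alone used quantile-normalized signals, and the other single-dye comparisons used signals after Aquantile scaling. The scripts were tested on simulated data. Arrays give no read depth, so the number of arrays limits the precision.

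Members, roles, lists and the rule for named genes were chosen with earlier results of these data known. The rule gives per-tumor values for members past the threshold between days, for the highest, the lowest and the smallest day p of each role, and for members with 1 tumor apart. It names the 2 called genes of largest ratio in each list. Bcar1, Tln1, Tln2, Parvg, Vcam1 and the markers named were chosen after their values were seen. Alternatives were another or no background correction, median centring, processed signals, the value table, filters, the mean of all probes of a gene, the area of lost signal left out, and each tumor left out. Symbols came from a RefSeq table (GRCm38.p6), and Lamb1-1 on the array is Lamb1. The values of 1 member are not reported here, though it is in the counts.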

Additional observations from a re-analysis of the deposited data

Results flagged for a closer look

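In 6 of the 31 tested members, 1 of the 6 tumors lay apart from the others by more than the critical value of Dixon's test for 6 samples. Chance flags about 1 group in 20, and 13.7% of all 16110 genes read in every tumor were apart in this way, so the count is not read as particular to the members. Tumor 313 was apart in 5 of them: highest for Itgb5 (2.48, next 1.59) and Itgb3 (3.42, next 2.57), and lowest for Itgb4 (-1.05, next 0.59), Lama5 (-1.47, next -0.24) and Itga3 (-1.11, next -0.64). Tumor 312 was lowest for Itgal (-0.12, next 3.27), through a spot in the area of lost signal.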

How the results depend on the processing

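No member that was called against the reference changed sign under any alternative run. With median centring in place of loess, the median of all genes moved from 0.22 to -0.34 and the share of calls that were higher from 72.3% to 41.3% (processed signals of the scanner gave 57.9%). Members called lower were then 8 in place of 5, with Itga3 (-1.60), Itgav (-1.27) and Lama5 (-1.09) added. Itgav is counted there through the probe that stands for it, although its probes disagree in direction. Itgb5 (0.68) and Lamb2 (0.58) lost their call. Genes of the 4 pathway lists called lower were 5 in place of 1. The uncalled members Itgb1 (-0.16), Itgb4 (-0.47) and Lamc1 (-0.21) then lay below 0. Leaving out 1 tumor gave 17 to 18 members higher and 4 to 5 lower. Between the days 0 members were called under every alternative run, and the number with an unadjusted p under 0.05 ran from 1 to 9, highest without tumor 318. No paired analysis was possible because the tumors of the 2 days share no replicate numbers. Dim probes limit Itga10, Itgb2l, Itga8, Lama1, Lama3 and Lamc3, and 3 tumors per day limit the day comparison.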
